A study of Mus musculus with 3 samples.

Results

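Triglyceride assembly enzymes turn glycerol and activated fatty acids into stored fat, and 10 genes that encode them were followed in brown adipose tissue of LKB1-deleted and wild-type mice. The genes were taken as a fixed list (Gk, Gpam, Gpat3, Gpat4, Agpat2, Agpat3, Lpin1, Lpin2, Dgat1 and Dgat2), and their probes were found by the RefSeq accession that the array files give. This matched 12 probes among 55681 non-control probes, 1 for each gene except Agpat2 and Lpin1, which had 2 each. All 12 were well above background in both channels on all 3 arrays, so every gene was among the 19327 genes and unnamed features tested.

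The series holds 3 two-colour Agilent arrays of whole brown adipose tissue, a fat depot that makes heat, from male mice of 10 weeks on regular chow. Each array set Cy5-labelled Ad-Lkb1 RNA against Cy3-labelled RNA of a wild-type littermate, which gave 3 samples of either genotype. The strain is given as C57BL/6J for Ad-Lkb1 and C57BL/6 for wild type, and the labels do not name the promoter that drives the deletion. Dye and genotype ran the same way on all arrays, so a dye effect and a genotype effect cannot be told apart for a gene, and neither can strain name and genotype. The series title states the question, the effect of deleting LKB1, a kinase upstream of AMPK, on this tissue.

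In brown fat cells, as in liver and white fat, triglyceride is built stepwise on glycerol 3-phosphate. Glycerol kinase makes that backbone from free glycerol, glycerol-3-phosphate acyltransferases add the first fatty acid and lysophosphatidic acid acyltransferases add the next. Lipins then remove the phosphate to give diacylglycerol, and diacylglycerol acyltransferases add the last fatty acid. The droplets so formed are the fuel store for heat production, and a high glycerol kinase activity is a known feature of brown as opposed to white fat in mice.

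Stk11, which encodes LKB1, had log2 ratios of -1.26, -1.17 and -1.17 on arrays 1 to 3, so all arrays carried the deletion in the direction of their labels. A channel had 46.7% to 51.3% of its probes well above background and 0 saturated. Over genes, which are no independent replicates, the arrays' log2 ratios correlated with Pearson's r = 0.73 between arrays 1 and 2, 0.36 between arrays 1 and 3 and 0.50 between arrays 2 and 3, so array 3 was the least like the others. Of all features, 1681 passed an adjusted p of 0.05 (limma, Benjamini-Hochberg over all 19327), 923 higher and 758 lower in Ad-Lkb1 tissue. The split was 528 higher and 279 lower with the scanner software's processed signals, and 389 higher and 9706 lower with median centring in place of loess. Median centring used the median of all non-control spots of an array, including dim probes that were not kept. It put the median of all features at -0.42, against -0.0099 after loess, so its 0 is not the middle of the features tested. Values below are log2 ratios after loess unless a scale is named, and levels are normalized intensities on a linear scale, which cannot be compared between probes. In bulk tissue, fewer cells of a type and less RNA per cell cannot be told apart.

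The triglyceride assembly genes had ratios on both sides of 0. Gk rose and Agpat3 fell, and the other 8 did not pass the threshold as genes, although the dimmer of the Agpat2 probes did as a probe. That is 2 of 10 genes called, against 8.7% of all features, with 1 of 10 higher against 4.78% and 1 of 10 lower against 3.92%. With median centring Gk passed higher and 8 genes passed lower, all but Gpat3, in a table where 9706 features were lower. Of the 10, 8 had mean ratios below 0, against 52.3% of all features, and their median ratio was -0.21, against -0.0099 for all features. The median of the 10 genes was -0.20, -0.16 and -0.12 on arrays 1 to 3. Ratios kept 1 sign on all 3 arrays for 7 genes, 5 below 0 and 2 above 0, while 51.8% of all features kept 1 sign. The levels of the 3 Ad-Lkb1 samples and the 3 wild-type samples did not overlap for 6 of the 10 genes (Gk, Gpat3, Gpam, Agpat2, Agpat3 and Dgat2), and they did not overlap for 36.5% of all features.

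**Figure D1:**
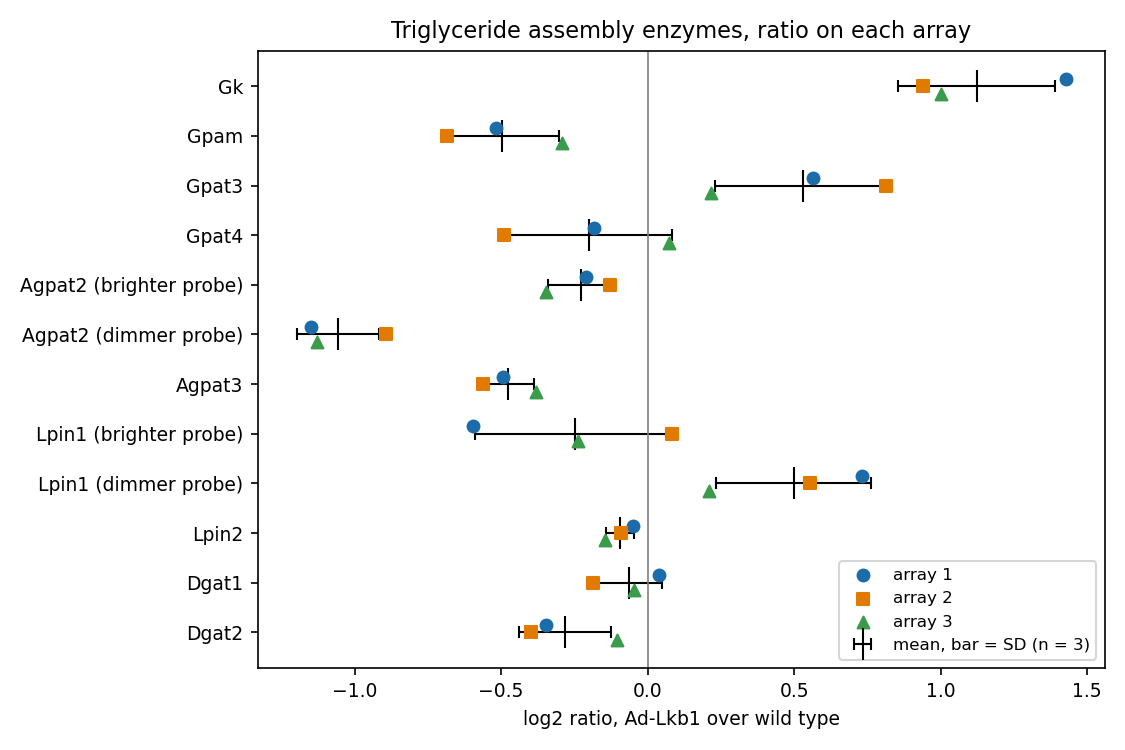
Ratio of Ad-Lkb1 to wild type on the log2 scale (horizontal axis) for the 12 probes of the 10 genes (rows, in pathway order), with 1 symbol per array, a vertical tick for the mean and a bar for the SD (n = 3 arrays). Gk lies at 1.12 and the dimmer Agpat2 probe at -1.06, and the remaining means lie between -0.50 and 0.53.

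Glycerol kinase, encoded by Gk, was the gene of the list with the largest ratio. Its normalized intensity was 1252, 1280.0 and 1262 in the Ad-Lkb1 samples of arrays 1 to 3, against 465, 668 and 631 in the wild-type samples. The groups did not overlap, and the Ad-Lkb1 samples lay close together (1265 ± 14.0, against 588 ± 108 in wild type, SD, n = 3 each). Gk had log2 ratios of 1.43, 0.94 and 1.00, a mean of 1.12 ± 0.27 (SD, n = 3 arrays, limma's moderated SE 0.12), which is 2.18-fold (limma, adjusted p = 0.0215). A lower ratio than that of Gk was found for 98.4% of all features. In the unprocessed scans the red signal of the Gk spot, carrying Ad-Lkb1 RNA, was 728, 856 and 856 over a background of 16 to 17, and the green signal, carrying wild-type RNA, was 665, 957 and 927 over a background of 42 to 45. After background subtraction red over green was 1.15, 0.92 and 0.95 for Gk, whereas it was 0.51 or less on every array for the other probes, except Gpat3 (0.54 to 0.87) and the dimmer Lpin1 probe (0.75 to 1.55). Gk did not pass without array 1 (0.97, adjusted p = 0.133) or without array 2 (1.21, adjusted p = 0.105), when 0 of all features passed. With median centring Gk was 0.43 (adjusted p = 0.0214).

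The Gk gene has close copies in the mouse genome, and the probe's own sequence was not used here. The probes named for the copies Gk2 and Gykl1 were well above background on 0 of the 3 arrays in either channel, with intensities of 64.7 to 65.3 in Ad-Lkb1 and 58.5 to 62.9 in wild type for Gk2. The related kinase gene Gk5 had log2 ratios of 0.75, 0.47 and -0.062 with its brighter probe, which did not pass the threshold (mean 0.39, adjusted p = 0.223). These 3 genes were picked after the values of Gk were seen, except that Gk5 was on the list of genes for glycerol 3-phosphate supply.

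The proximal promoters of the genes whose probes passed the threshold (Gk, Agpat3 and Agpat2) are shown here to put the called genes side by side, each from 250 bases before to 50 after the start site, 5′ to 3′ on the gene's strand. They were taken from RefSeq on build GRCm38.p6 by gene symbol, which gave 10 windows for 7 of the 10 genes, and capitals mark the searched motifs.
Gk, chrX:85776770-85777069, minus strand: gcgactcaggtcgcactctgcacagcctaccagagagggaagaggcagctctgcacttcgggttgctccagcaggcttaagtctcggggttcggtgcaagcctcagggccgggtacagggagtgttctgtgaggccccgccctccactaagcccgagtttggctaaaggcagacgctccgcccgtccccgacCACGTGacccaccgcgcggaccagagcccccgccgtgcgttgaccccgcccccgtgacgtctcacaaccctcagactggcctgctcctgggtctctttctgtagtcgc
Agpat3, chr10:78351651-78351950, minus strand: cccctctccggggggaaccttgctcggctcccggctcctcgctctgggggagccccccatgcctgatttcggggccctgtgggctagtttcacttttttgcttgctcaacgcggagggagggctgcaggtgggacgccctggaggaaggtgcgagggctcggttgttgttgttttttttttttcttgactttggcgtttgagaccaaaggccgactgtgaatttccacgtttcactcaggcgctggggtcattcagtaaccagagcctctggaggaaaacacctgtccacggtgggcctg
Agpat2, chr2:26604368-26604667, minus strand: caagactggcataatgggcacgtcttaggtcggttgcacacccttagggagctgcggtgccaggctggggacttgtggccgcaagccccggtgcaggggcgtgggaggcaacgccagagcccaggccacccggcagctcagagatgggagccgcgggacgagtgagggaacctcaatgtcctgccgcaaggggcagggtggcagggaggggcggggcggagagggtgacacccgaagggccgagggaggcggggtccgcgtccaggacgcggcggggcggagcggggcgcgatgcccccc
The motifs were the E-box CACGTG, the sterol response letters TCACNCCAC and the nuclear receptor letters AGGTCA, read on both strands with no overlap between the matches found. The Gk window holds 1 E-box, with its first base at position -58 from the start site, and no other searched motif, and the Agpat3 and Agpat2 windows hold 0 of the 3 motifs. An E-box stands in 7.15% of all 32851 promoter windows, the sterol response letters in 1.24% and the nuclear receptor letters in 16.3%. Among the other windows, 1 of 3 of Lpin2 holds an E-box at -9, 1 of 2 of Gpam AGGTCA at -196 and that of Lpin1 AGGTCA at -74, while the Gpat3 window holds none of these letters. A match describes these letters only.

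**Figure D2:**
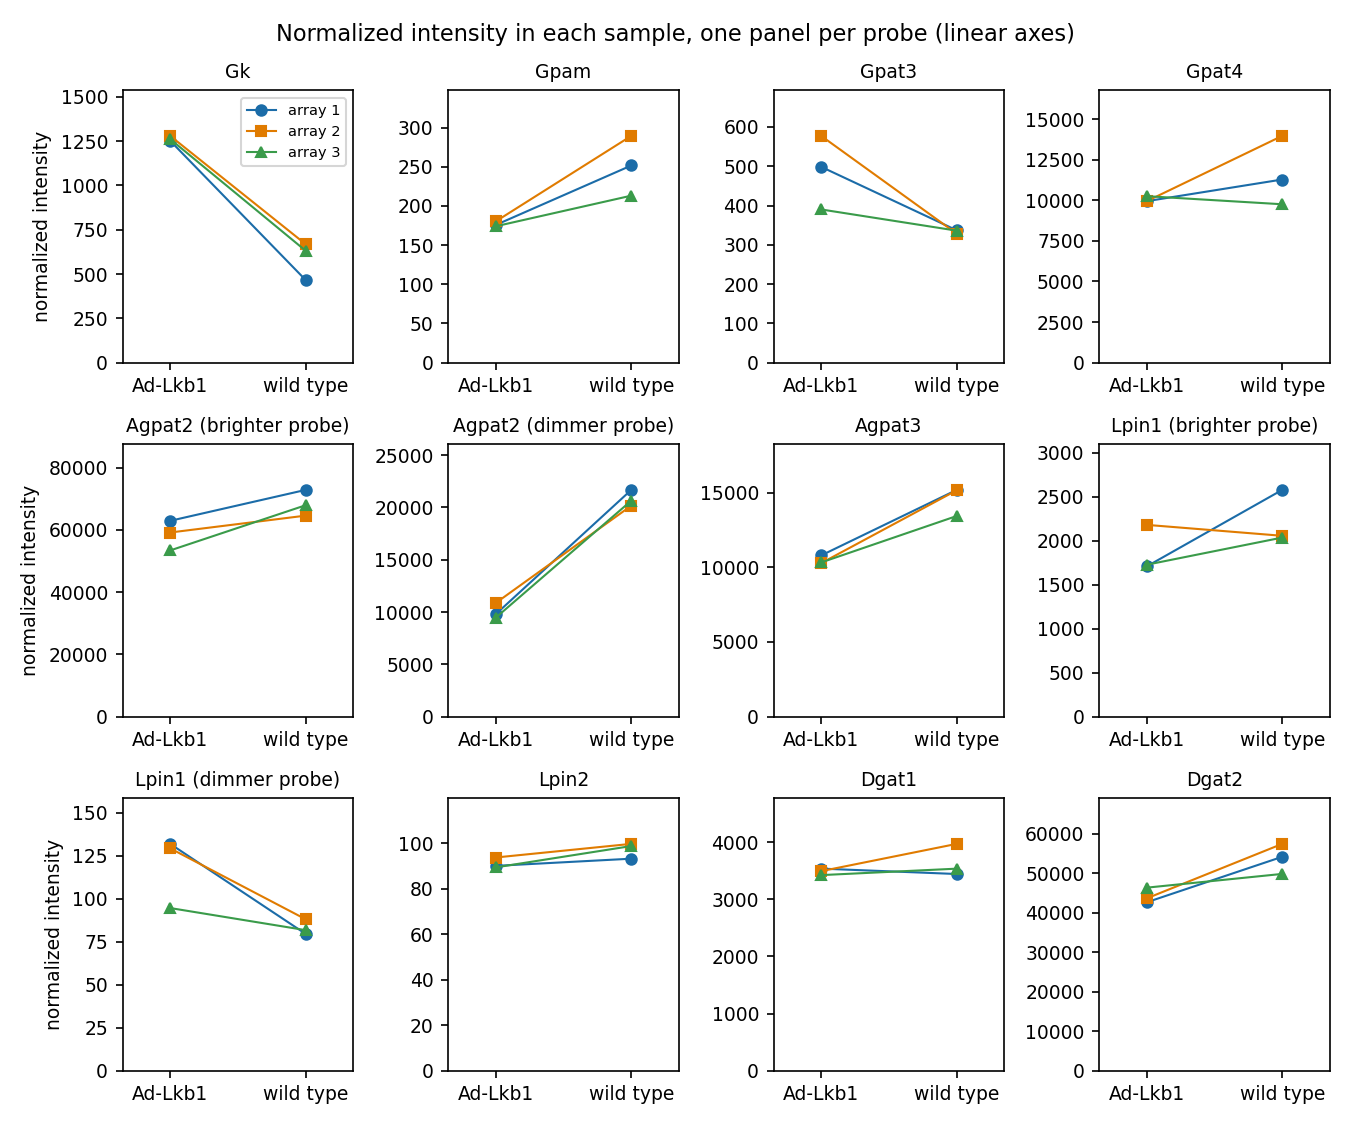
Normalized intensity (vertical axes, linear, starting at 0) in the Ad-Lkb1 sample (left) and the wild-type sample (right) of each array, 1 panel per probe, with a line joining the samples of an array. Gk runs from 1252 to 1280.0 in Ad-Lkb1 and from 465 to 668 in wild type, and Agpat3 from 10276 to 10793 in Ad-Lkb1 and from 13436 to 15184 in wild type.

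The glycerol-3-phosphate acyltransferase genes also lay on both sides of 0, and none passed the threshold. Gpam encodes the mitochondrial enzyme, which in mouse liver is induced by insulin through SREBP-1. Gpam had intensities of 176, 180.2 and 174 in Ad-Lkb1 samples, against 252, 289.5 and 213 in wild-type samples. All 3 wild-type values lay above all Ad-Lkb1 values. Gpam had ratios of -0.52, -0.68 and -0.29, a mean of -0.50 ± 0.20 (SD, n = 3, limma adjusted p = 0.0546, limma's unadjusted 95% interval -0.76 to -0.23). It passed without array 3 (-0.60, adjusted p = 0.0367), when the channels were taken as separate samples (adjusted p = 0.0313) and with median centring (-1.01, adjusted p = 0.0085). Its red signal was 79 to 97 over a background of 17 to 19. Its ratio was -0.57 with an offset of 10 (adjusted p = 0.0613) and -0.82 with the software's processed signals (adjusted p = 0.0803).

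Gpat3 encodes an enzyme of the endoplasmic reticulum that is induced as mouse fat cells differentiate. Gpat3 had intensities of 499, 577 and 390.1 in Ad-Lkb1 samples, against 337, 328 and 336 in wild-type samples. The groups did not overlap, and the wild-type samples were the more alike. Its ratios were 0.57, 0.81 and 0.22, with a mean of 0.53 ± 0.30 (SD, n = 3, limma adjusted p = 0.0819, limma's unadjusted 95% interval 0.18 to 0.88). It passed without array 3 (0.69, adjusted p = 0.0325) and with the channels as separate samples (adjusted p = 0.0477), but median centring turned it to -0.095 (adjusted p = 0.639). Gpat4, the other enzyme of the endoplasmic reticulum, had 9947, 9942 and 10257 in Ad-Lkb1 samples, against 11283, 13971.5 and 9758 in wild-type samples. The Ad-Lkb1 values fell inside the wild-type range. The Gpat4 ratios of -0.18, -0.49 and 0.072 differed in sign between arrays (mean -0.20 ± 0.28 SD, adjusted p = 0.370, 95% interval -0.53 to 0.13).

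Both lysophosphatidic acid acyltransferase genes had ratios below 0 on every array, by every probe. Agpat3, whose enzyme favours polyunsaturated fatty acids, had intensities of 10793, 10276 and 10322.5 in Ad-Lkb1 samples, against 15184, 15159 and 13436 in wild-type samples. No Ad-Lkb1 value reached the lowest wild-type value. Agpat3 had ratios of -0.49, -0.56 and -0.38 and so fell by 0.48 ± 0.091 in log2 units (SD, n = 3, limma's moderated SE 0.074). The wild-type level was 1.39-fold the Ad-Lkb1 level (adjusted p = 0.0353 by limma). It no longer passed without array 1 or without array 2 (adjusted p = 0.167 and 0.182), when 0 of all features passed. Nor did it pass with the software's processed signals (-0.51, adjusted p = 0.105) or with the deposited value table (-0.51, adjusted p = 0.103). With median centring it was -1.18.

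Agpat2 encodes the acyltransferase whose loss causes congenital lipodystrophy in humans and loss of fat tissue in mice. Its probes, both assigned to the same RefSeq transcript, gave unequal ratios. The brighter probe had intensities of 62880.2, 59128.5 and 53372 in Ad-Lkb1 samples, against 72823.5, 64556.5 and 67904 in wild-type samples. Its ratios were -0.21, -0.13 and -0.35, which did not pass over all features (mean -0.23 ± 0.11 SD, adjusted p = 0.142). It was -0.54 with the software's processed signals (adjusted p = 0.115) and -0.91 with median centring (adjusted p = 0.0187). The dimmer probe had 9785, 10859.9 and 9453 in Ad-Lkb1 samples, against 21682, 20173 and 20650 in wild-type samples. Here the groups lay far apart, and each was narrow. Its ratios were -1.15, -0.89 and -1.13, so it fell by 1.06 ± 0.14 in log2 units (SD, n = 3), a 2.08-fold difference. It passed among all 25030 probes kept (limma, adjusted p = 0.013). It did not pass without array 1 or without array 2 (adjusted p = 0.127 and 0.0774), when 0 of all genes and unnamed features passed. Of the 12 probes 3 passed in the fit of all 3 arrays, against 8.73% of all probes kept, 1 higher against 4.73% and 2 lower against 4%.

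The gap between the Agpat2 probes was 0.94, 0.77 and 0.78 on the log2 scale on arrays 1 to 3 (mean 0.83 ± 0.094 SD). It was present in the unprocessed scans, where red over green after background subtraction was 0.16, 0.28 and 0.21 for the dimmer probe and 0.30, 0.51 and 0.37 for the brighter one. In the ratios of the scanner software the gap was 0.77, 0.64 and 0.56. Among 2739 genes with 2 kept probes the median gap was 0.13, and 1.68% had a gap as wide as that of Agpat2 or wider. With the mean of its probes Agpat2 had -0.64 and passed (adjusted p = 0.0249). The gap is given as a description, with no test.

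The lipin genes did not pass the threshold. Lpin1 encodes the phosphatidate phosphatase lost in the fatty liver dystrophy mouse, which also acts in the nucleus as a coactivator. Its brighter probe had intensities of 1707, 2179.8 and 1726 in Ad-Lkb1 samples, against 2577, 2055 and 2035 in wild-type samples. The order of the genotypes was reversed on array 2, with ratios of -0.59, 0.085 and -0.24 (mean -0.25 ± 0.34 SD, adjusted p = 0.338). The dimmer probe, assigned to the same transcript, had 132, 129 and 94.6 in Ad-Lkb1 samples, against 79.5, 88.0 and 81.7 in wild-type samples. Its groups did not overlap, with ratios of 0.73, 0.56 and 0.21 (mean 0.50 ± 0.26 SD, adjusted p = 0.0757 over all probes kept). So the probes of Lpin1 lay on opposite sides of 0, and the mean over both was 0.12 (adjusted p = 0.432). The dimmer probe was near background, with a red signal of 41 to 65 over 16 to 17, and it passed without array 3 (0.64, adjusted p = 0.0326) and without background subtraction (0.84, adjusted p = 0.0456). A gap as wide as that between the Lpin1 probes or wider was found in 2.26% of the genes with 2 kept probes.

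Lpin2, whose product has the same enzyme activity and is abundant in mouse liver, had intensities of 90.05, 93.7 and 89.4 in Ad-Lkb1 samples, against 93.2, 99.7 and 98.8 in wild-type samples. Its ratios of -0.050, -0.090 and -0.14 were the smallest in spread of the list (mean -0.095 ± 0.047 SD, adjusted p = 0.427). The spot was dim, with red signals of 30 to 38 over 16 to 17 and green signals of 86 to 105 over 45 to 49, and the ratio was -0.47 with the software's processed signals (adjusted p = 0.113). The 95% interval after loess was -0.27 to 0.085.

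The last step is shared by the diacylglycerol acyltransferases DGAT1 and DGAT2, which are unrelated in sequence. Dgat2, which favours newly made fatty acids, had intensities of 42668, 43658 and 46381 in Ad-Lkb1 samples, against 54211, 57486 and 49870.1 in wild-type samples. The groups did not overlap, though array 3 showed the smallest gap. Dgat2 had ratios of -0.35, -0.40 and -0.10, a mean of -0.28 ± 0.16 (SD, n = 3, limma adjusted p = 0.123, limma's unadjusted 95% interval -0.52 to -0.048). It was -0.52 with the software's processed signals (adjusted p = 0.102) and -0.96 with median centring (adjusted p = 0.0148). Dgat1, which esterifies incoming fatty acids in the endoplasmic reticulum, had 3535, 3491 and 3422 in Ad-Lkb1 samples, against 3441, 3968 and 3535 in wild-type samples. The samples overlapped. Dgat1 had the mean ratio nearest to 0 of the 10 genes, -0.064 ± 0.11 (SD, n = 3, adjusted p = 0.645), with an interval of -0.27 to 0.14, and it was 0.013 with the software's processed signals and with the deposited value table.

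**Figure D3:**
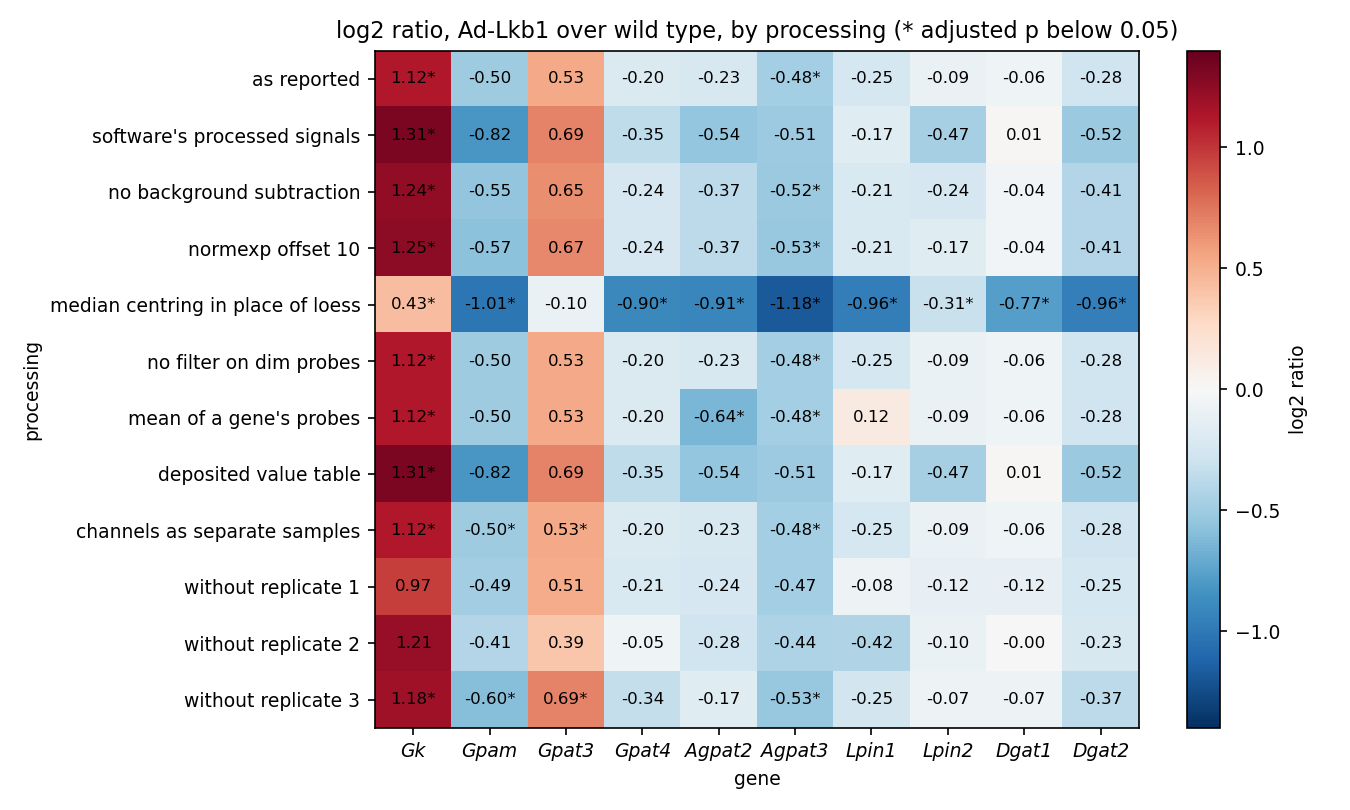
Ratio of Ad-Lkb1 to wild type on the log2 scale (colour and number) of the 10 genes (columns) as reported and under 11 other ways of processing (rows), with a star where the adjusted p is below 0.05. Gk is above 0 in every row, from 0.43 to 1.31, and Agpat3 below 0 in every row, from -1.18 to -0.44, while Gpat3, Lpin1 and Dgat1 change sign in at least 1 row.

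Other genes of glycerolipid synthesis were compared to place the 10 genes in their pathway. Of 54 listed, 48 were measured, and 10 passed the threshold (20.8%, against 8.7% of all features), 3 higher and 7 lower. Their median ratio was -0.079. The split turned with the background step, to 5 higher and 2 lower with an offset of 10 or without background subtraction, and to 3 higher and 0 lower with the deposited value table or the software's processed signals. With median centring 1 was higher and 34 were lower. Aqp3, Aqp9, Fitm1, Gpat2 and Pcyt1b did not pass the filter on dim probes, and Ldaf1 was matched to no symbol.

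Relatives of the acyltransferases and lipins, listed with Ctdnep1 and Cnep1r1, which belong to neither family, leaned towards higher values. Of 11 measured, 2 rose and 0 fell (limma, 5 at an unadjusted p under 0.05), against 4.78% of all features higher and 3.92% lower. Their median was 0.19, and 10 of 11 ratios lay above 0, all but that of Cnep1r1 (-0.47). Of all features, 52.3% had ratios below 0. With median centring this lean turned, with 3 of 11 above 0 and 7 past the threshold below it. Lpin3, the remaining lipin gene, had intensities of 308, 316 and 282 in Ad-Lkb1 samples, against 158, 157 and 146 in wild-type samples. With ratios of 0.96, 1.01 and 0.95 it rose by 0.97 ± 0.032 in log2 units (SD, n = 3, 1.96-fold, adjusted p = 0.0117), and by 0.46 with median centring (adjusted p = 0.0236). Agpat4, a further lysophosphatidic acid acyltransferase, rose by 0.62 (SD 0.038, 1.54-fold, adjusted p = 0.0214), but had 0.10 with median centring, not past the threshold (adjusted p = 0.477). Lpin3 and Agpat4 thus lay above 0 on arrays where Agpat2 and Agpat3 lay below 0. Whether those ratios differ was not tested.

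Glycerol 3-phosphate can also come from glycolysis, through the cytosolic dehydrogenase Gpd1, or be oxidized by the mitochondrial Gpd2. Of 7 measured genes of this supply, 1 fell and 0 rose, against 3.92% and 4.78% of all features (limma, 3 at an unadjusted p under 0.05). Their median was 0.15. With the software's processed signals 1 was higher, 0 were lower and the median was -0.061, and with median centring 4 were lower and the median was -0.39. Gpd2 had 4562, 4539 and 4097 in Ad-Lkb1 samples, against 6419, 6425 and 5228 in wild-type samples, and fell by 0.45 ± 0.084 in log2 units (SD, n = 3, adjusted p = 0.0384). It did not pass with the software's processed signals (adjusted p = 0.143), with an offset of 10 (0.0654) or without background subtraction (0.0577). Gpd1 had 0.34 ± 0.12 (SD, adjusted p = 0.0739) and its relative Gpd1l had -0.20 ± 0.033 (SD, adjusted p = 0.133), neither past the threshold, and Gpd1 turned to -0.33 with median centring.

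The list for the branch that leads from phosphatidic acid and diacylglycerol to phospholipids also held Dgk and Plpp genes. Their enzymes convert diacylglycerol and phosphatidic acid into each other. This list had 6 of 28 measured genes lower and 1 higher, against 3.92% and 4.78% of all features, with a median of -0.23. The genes past the threshold below 0 numbered 2 with an offset of 10 or without background subtraction, 0 with the deposited value table or the software's processed signals, and 21 with median centring. Crls1, which makes cardiolipin, fell by 0.76 (SD 0.26, adjusted p = 0.0366), and Pcyt2, which activates ethanolamine phosphate, fell by 0.43 (SD 0.038, adjusted p = 0.0352), and with the software's processed signals neither passed (adjusted p = 0.101 and 0.102). Cds2, which makes CDP-diacylglycerol, fell by 0.43 (SD 0.078, adjusted p = 0.0394), but with the mean of its probes it had -0.18, not past the threshold (adjusted p = 0.199). The 1 higher gene was Plpp2, which dephosphorylates phosphatidic acid at membranes (0.44 ± 0.085 SD, adjusted p = 0.0394), and median centring turned it to -0.18 (adjusted p = 0.281). The other lower genes were Chpt1, Cept1 and Ptdss1, which make phosphatidylcholine, phosphatidylethanolamine and phosphatidylserine. The droplet formation factors Fitm2 and Bscl2, which encodes seipin, had -0.15 and 0.064, and neither of these 2 measured genes passed (adjusted p = 0.504 and 0.745, 0 at an unadjusted p under 0.05), although both passed below 0 with median centring.

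**Figure D4:**
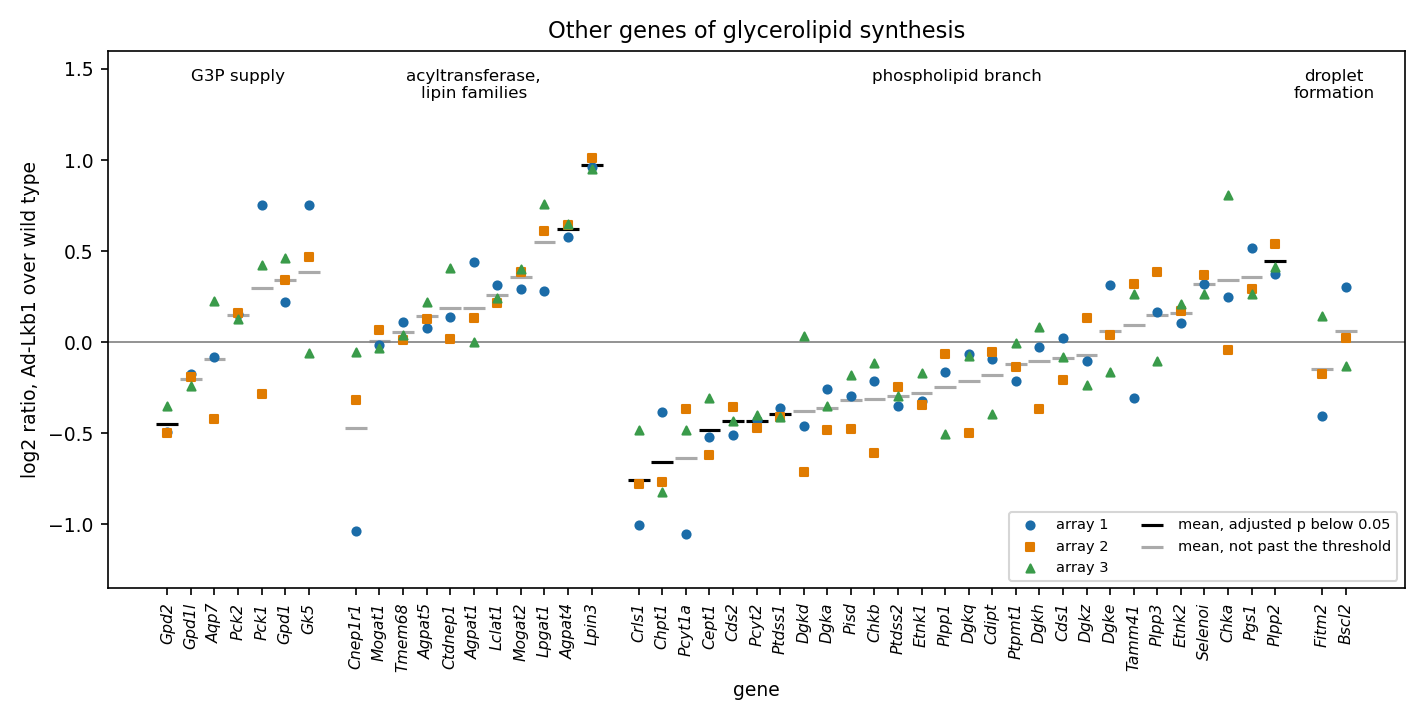
Ratio of Ad-Lkb1 to wild type on the log2 scale (vertical axis) of 48 other genes of glycerolipid synthesis, grouped by function (horizontal axis), with 1 symbol per array and a tick for the mean, black where the adjusted p is below 0.05. Lpin3 at 0.97 and Agpat4 at 0.62 stand above 0 on all arrays, and 6 genes of the phospholipid branch are called below 0, led by Crls1 at -0.76.

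Marker genes of the cell types in the tissue moved with genotype as well. Of all features, 4.78% passed the threshold higher and 3.92% lower, the shares to set beside the counts of markers. Of 12 adipocyte markers 3 rose and 1 fell, with a median of -0.023 and a summed intensity of 447547 to 505417 in Ad-Lkb1 samples, against 297060 to 335175 in wild-type samples, in which the heat-making Ucp1 takes part (1.48, adjusted p = 0.0114) and the receptor gene Adrb3 had -1.0 (adjusted p = 0.0283). All 12 were well above background in every sample, and 6 of the 12 ratios lay below 0. A summed intensity is weighted towards the brightest probes, so it does not measure the amount of a cell type. Ucp1 alone had 108308 to 134128 in Ad-Lkb1 samples, against 41450 to 43788 in wild-type samples. With median centring 2 adipocyte markers were higher and 7 lower, with a median of -0.71, and with the software's processed signals 1 was higher and 0 were lower. Of 11 macrophage markers measured 7 rose and 0 fell, with a summed intensity of 8671 to 10063 in Ad-Lkb1 samples, against 2907 to 5819 in wild-type samples, and the medians were 1.99, 2.21 and 1.04 on arrays 1 to 3. They include Trem2 (3.39) and Gpnmb (2.66), while Itgam (-0.093) and Cd14 (-0.027) were the 2 of 11 below 0. Cd163 was well above background on 0 arrays. With median centring 6 macrophage markers were higher and 2 lower. The higher macrophage markers numbered 5 with the software's processed signals and 2 without the filter on dim probes. Of 8 fibroblast markers 5 rose and 0 fell, among them Col3a1 (1.17) and Lum (1.5), with sums of 24358 to 31486 in Ad-Lkb1 samples, against 13386 to 16578 in wild-type samples. The higher fibroblast markers numbered 2 with median centring and with the software's processed signals. Endothelial markers had 1 higher (Vwf, 0.40) and 1 lower (Kdr, -0.42) of 8, with sums of 2994 to 3158 in Ad-Lkb1 samples, against 3328 to 3839 in wild-type samples. With median centring 0 were higher and 6 lower, with Vwf at -0.25, and with the software's processed signals neither Vwf nor Kdr passed (adjusted p = 0.132 and 0.176). Of the 4 lymphocyte markers measured 0 passed (limma, 0 at an unadjusted p under 0.05), with sums of 1197 to 1259 in Ad-Lkb1 samples, against 1148 to 1904 in wild-type samples, and Cd4 and Cd3e had -0.22 and -0.16. Cd79a and Ms4a1 were well above background on 0 arrays.

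Skeletal muscle markers varied by array rather than by genotype, with a median ratio of -3.14, 2.35 and 3.81 on arrays 1 to 3 and 0 of 8 measured past the threshold (limma, 0 at an unadjusted p under 0.05), as for Acta1 (-3.17, 3.06 and 4.27). Mylpf was an exception, with 0.0070, 0.031 and -0.23. Their summed intensity was 3950 to 22940 in Ad-Lkb1 samples, against 3684 to 19987.5 in wild-type samples. Gk and Agpat3 kept their sign on array 1, where muscle markers were low in the Ad-Lkb1 sample, and on arrays 2 and 3, where they were high. Lpin1, which muscle expresses strongly in mice, had -0.59 on array 1 against 0.085 and -0.24 on arrays 2 and 3 with its brighter probe, while its dimmer probe had 0.73 on array 1 against 0.56 and 0.21 on arrays 2 and 3. On array 3 the macrophage, fibroblast and lymphocyte medians were lowest, and the skeletal muscle and adipocyte medians highest. There the ratios of Gpat3, Gpam, Gpat4, Agpat3, Dgat2 and the dimmer Lpin1 probe were at their smallest in size. Those of Lpin2 and the brighter Agpat2 probe were at their largest there, whereas the dimmer Agpat2 probe had -1.15, -0.89 and -1.13 on arrays 1 to 3. The ratios of Gk and the brighter Lpin1 probe were smallest in size on array 2, and that of Dgat1 on array 1. The part of these cell types in the ratios of the triglyceride assembly genes was not tested.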

How the data were processed

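Brown adipose tissue of 3 Ad-Lkb1 and 3 wild-type mice was measured on 3 two-colour arrays. Per the submitters' processing notes, the authors used Agilent Feature Extraction 11.5. Per the file headers, the deposited files hold median spot and background intensity in both channels, processed intensity, 0 or 1 flags per spot (other columns, taken as flags) and a log10 ratio of the red to the green channel. The deposited log10 value table matched that ratio (correlation 1.0, largest difference 0.0049).

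Background was corrected with normexp (offset 50) in limma 3.58.1 (R 4.3.3), followed by loess within arrays with control spots at weight 0. Outlier spots, 1 incomplete feature of array 1 and 2 of array 3 were left out. Probes flagged well above background in 1 or both channels of all 3 arrays were kept (25030 of 55681), and a gene was its brightest kept probe. Of the probes, 28026 matched 1 of 21154 RefSeq symbols (GRCm38.p6), and the rest kept the file's own name. Levels are intensities after loess and Aquantile. The log2 ratio was tested against 0 with limma (lmFit, eBayes), adjusted by Benjamini-Hochberg over 19327 features, threshold 0.05. The ratio pairs the samples of an array. The procedure was tested on simulated data, where it missed many changes of the size seen here, so a gene that did not pass is not shown to be unchanged. It also called some unchanged genes there, a larger share of its calls than the threshold of 0.05 aims at, so a call can be false. The number of arrays limits the precision. The p-values rest on the spread between 3 pairs, drawn by limma towards the spread of all features.

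The members and lists were chosen with earlier results of these data known. All 10 members are named, and of the other lists up to 4 genes of smallest p past the threshold, or 2 others where fewer than 2 passed, and 2 of each marker list by smallest p. Chpt1, Cept1, Ptdss1, Ctdnep1, Cnep1r1, Itgam, Cd14, Gk2 and Gykl1, and the untested genes, were named after their values were seen. RefSeq proteins were not used here.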

Additional observations from a re-analysis of the deposited data

How the results depend on the processing

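Of the 10 genes, Gk stayed above 0 and Agpat3 below 0 under all 11 alternatives tried (0.43 to 1.31 and -1.18 to -0.44), and Gpam, Gpat4, Agpat2, Lpin2 and Dgat2 stayed below 0 as well. Of 10 genes, 2 passed as reported. This count was 1 with the software's processed signals, 1 with the deposited value table, 9 with median centring (1 higher and 8 lower) and 4 without the pairing of the samples of an array, and 0 to 4 when 1 array was left out. The 0 calls by limma came without array 1 and without array 2, with 3 and 4 genes at an unadjusted p under 0.05. The probes past the threshold numbered 3 as reported, 10 with median centring, 5 without the replicate block and 0 to 6 without 1 array. The median of the 10 genes was -0.21 as reported, -0.41 with the processed signals or the deposited table, -0.90 with median centring, -0.15 when probes of a gene were averaged and -0.21 to -0.16 without 1 array. Other glycerolipid genes past the threshold numbered 10 as reported, 3 with the processed signals and with the deposited table, 35 with median centring and 0 to 7 without 1 array. Over all features the 1681 calls became 807 with the processed signals, 806 with the deposited table, 10095 with median centring, 1033 without a filter on dim probes, 3001 without the replicate block, and 0 to 2052 without 1 array (0 without array 1 and without array 2, with 3928 and 3562 at an unadjusted p under 0.05). The split of calls was 1066 higher and 527 lower with an offset of 10 and 1015 higher and 558 lower without background subtraction. Signs turned for Dgat1 (0.013 with the processed signals and with the deposited table), Gpat3 (-0.095 with median centring) and Lpin1 (0.12 with the mean of its probes), none of them past the threshold. The Lpin1 mean joins probes at -0.25 and 0.50, and median centring put the median of all features at -0.42. The cause of the turns of Dgat1 and Gpat3 was not tested. Lpin2, Gpam and the dimmer Lpin1 probe had the lowest red signals over background of the 12 probes, and Lpin2 and Gpam kept their sign.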
